A study of Mus musculus with 6 samples.

Results

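The genes described here are the components of WNT signalling measured by RNA-seq of Rnf20 knockout and wild type (WT) mouse embryonic fibroblasts (MEF) at day 3 of reprogramming. They were chosen by symbol from the count table: the Wnt ligands, the R-spondins, the Frizzled, Lrp5, Lrp6, Lgr4, Lgr5 and Lgr6 receptors, the Sfrp, Frzb, Dkk, Sost, Sostdc1 and Wif1 antagonists, the TCF/LEF factors, and the regulators Axin1, Axin2, Nkd1, Nkd2, Znrf3 and Rnf43. This gave 57 of 16982 genes, of which 17 encode ligands, 4 R-spondins, 15 receptors, 11 secreted antagonists, 4 nuclear factors and 6 feedback regulators. Of these, 49 passed the filter on low counts and were tested among 13386 genes.

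The series holds 3 libraries of Rnf20+/+ and 3 of Rnf20-/- cells on a C57BL/6 background, collected at day 3 of induction with the retroviral factors OCT4, SOX2, KLF4 and C-MYC (OSKM). RNF20 is the E3 ligase that attaches monoubiquitin to histone H2B. The MEF carried Rnf20 Flox/Flox alleles and Tamoxifen-cre, a transgene whose Cre is not limited to a cell type and stays inactive until the drug is added, and 4-OH tamoxifen was used to delete the gene, as the methods section describes. The labels give all 6 cultures as untreated, and whether the WT cells carried Cre or received 4-OH tamoxifen is not stated. Infected cells were moved onto growth-arrested MEF feeders, and whether feeder RNA entered these libraries is also not stated. Nothing in the labels says that the replicates came from separate embryos, so the p-values measure only the spread between these 6 libraries. WT1 to WT3 and KO1 to KO3 below are the WT and knockout replicates, and values listed together follow that order.

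WNT ligands are lipid-modified secreted proteins that bind Frizzled receptors and the co-receptors LRP5 or LRP6. Binding disables the complex that marks beta-catenin for destruction, and beta-catenin then enters the nucleus and works through the TCF/LEF factors. R-spondins, acting through the LGR receptors, keep Frizzled proteins on the cell surface by removing the ubiquitin ligases ZNRF3 and RNF43. Secreted antagonists bind either the ligands or the LRP co-receptors. Several WNT genes are known for their roles in limb and skeletal development, and TCF7L1 is known as a repressor of target genes in pluripotent cells.

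The promoters of the 3 members that passed the stricter of the 2 call rules (below) are shown for description only. Whether their sequence bears on the fold changes was not tested. Each line holds the 250 bases before the RefSeq transcription start in GRCm38.p6, read 5′ to 3′ on the strand of the gene, with each CG dinucleotide in capitals.
Wnt9a, chr11:59306680-59306929, plus strand: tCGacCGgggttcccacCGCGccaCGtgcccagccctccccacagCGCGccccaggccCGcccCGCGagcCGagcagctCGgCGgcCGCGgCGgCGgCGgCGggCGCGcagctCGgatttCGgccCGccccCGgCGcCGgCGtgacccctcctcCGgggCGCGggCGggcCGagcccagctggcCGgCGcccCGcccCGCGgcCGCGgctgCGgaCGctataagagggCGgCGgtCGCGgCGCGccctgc
Wnt10b, chr15:98778151-98778400, minus strand: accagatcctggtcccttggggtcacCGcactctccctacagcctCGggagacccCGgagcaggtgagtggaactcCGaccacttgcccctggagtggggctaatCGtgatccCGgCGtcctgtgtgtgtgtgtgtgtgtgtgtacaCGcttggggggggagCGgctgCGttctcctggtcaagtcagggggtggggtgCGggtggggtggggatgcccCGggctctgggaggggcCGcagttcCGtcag
Sost, chr11:101967016-101967265, minus strand: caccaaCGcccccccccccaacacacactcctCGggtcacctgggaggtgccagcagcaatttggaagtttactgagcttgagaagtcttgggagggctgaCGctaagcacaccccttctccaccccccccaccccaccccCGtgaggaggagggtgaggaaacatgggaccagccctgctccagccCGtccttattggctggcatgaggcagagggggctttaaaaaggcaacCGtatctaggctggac

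The Wnt9a window holds 48 CG dinucleotides and is 84.4% G or C, the Wnt10b window holds 14, and the Sost window holds 6. The median over 32851 windows of the same length is 6, and 0.186% of them hold as many as Wnt9a. RefSeq windows were found for 38 of the 57 members (47 windows). Their median is 16 CG dinucleotides, so the Wnt10b and Sost windows lie below the median of the members' windows. The core letters of the TCF/LEF site, ATCAAAG or TTCAAAG on either strand, were found in windows of Wnt5b, Wnt11 and Dkk1, which is 6.38% of the members' windows against 7.48% of all windows. None of the 15 windows of called members held these letters.

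The libraries held between 20545442 and 21746898 counts on genes, and values are given as CPM, that is counts scaled to a common library total, after TMM normalization. Rnf20 lay at 107, 107 and 106 CPM in WT and 18.7, 18.5 and 16.4 CPM in knockout (log2 fold change -2.57 ± 0.08 standard error (SE), adjusted p = 0.000163). Adjusted p-values throughout are from the quasi-likelihood test of edgeR, adjusted by Benjamini and Hochberg over all tested genes, unless another test is named. KO3 stood apart from KO1 and KO2. Among the tested WNT genes, 29 of 49 (59.2%) in KO3 lay beyond 1.5 times, in either direction, of the mean of KO1 and KO2, and among all tested genes 25.4% did. The same count of WNT genes was 16 for KO1 (32.7%, against 12.6% of all tested genes) and 9 for KO2 (18.4%, against 11.3%). For the WT libraries it was between 5 and 9 (10.2% to 18.4%, against 4.32% to 6.41%). The share of WNT genes was thus above that of all tested genes in every library. Of the marker lists, the 10 fibroblast genes, led by Col1a1, Col1a2 and Col3a1, summed to between 30300 and 33100 CPM in WT and to 32000, 39900 and 21600 CPM in knockout. All 6 macrophage markers were detected, and their sums were 44.5 to 89.2 CPM in WT and 75.1, 48.1 and 242 CPM in knockout. Lyz2 alone was 159 CPM in KO3. It lay above the WT range there, as did Adgre1, Cd14, Csf1r and Ptprc. Cd68 lay within it, at 8.57 CPM against 6.70 to 10.5 CPM in WT. None of the 6 was called. The 8 osteoblast and osteocyte genes in the table summed to 60.0 to 70.3 CPM in WT and 66.7, 66.4 and 41.5 CPM in knockout, and the 6 chondrocyte genes to 83.4 to 98.7 CPM in WT and 99.5, 136 and 33.9 CPM in knockout. Most of the former sum was Runx2 (mean 46.9 CPM in WT, 46.1 in knockout) and most of the latter Col2a1 (69.5 and 75.5 CPM). Both genes overlapped between genotypes. Alpl, Sp7, Phex, Dmp1, Sox9 and Comp lay below WT in every knockout library and were not called. Bglap rose, and Ibsp, Fgf23, Acan, Col9a1 and Matn1 overlapped. The sums of some other lists separated the genotypes in all libraries, though their genes did not all move together. The adipocyte list summed to 24.7 to 29.3 CPM in WT and 11.2, 10.8 and 8.76 CPM in knockout, with Adipoq and Plin1 at or under the floor of 3 counts. Most of this sum was Cebpa (mean 23.6 CPM in WT, 6.76 in knockout), while Pparg lay above WT in every knockout library and Fabp4 overlapped. The neural list summed to 296 to 320 CPM in WT and 461, 458 and 348 CPM in knockout. Its abundant genes went opposite ways: Nes rose from a mean of 194 to 331 CPM. Stmn2 lay below WT in every knockout library (111 to 80.5 CPM) and was not called. The fibroblast list did not move as one. Thy1 (log2 fold change -1.11, adjusted p = 0.00251, edgeR) and Pdgfra (log2 fold change -1.22, adjusted p = 0.0185, edgeR) fell. Fn1 (log2 fold change 0.56) and Vim (0.29) lay above WT in every knockout library and Lum (-1.13) below, and none of them was called. Col1a1, Col1a2, Col3a1, Pdgfrb and Dcn overlapped between genotypes and were not called. The part of these shifts in the results below was not tested, and in bulk RNA fewer cells of a type and less RNA per cell cannot be told apart.

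WNT genes moved in both directions. At an adjusted p under 0.05, 8 of the 49 tested members were lower and 8 higher in Rnf20 knockout cells. Of all genes tested, 16.6% were lower and 16.4% higher, 33.0% in all, so the members' 32.7% was close to the background. A stricter rule (adjusted p under 0.01, more than 1 on the log2 scale and a mean FPKM over 1 in a genotype), with the thresholds from the methods section, left Sost, which fell, and Wnt9a and Wnt10b, which rose. The background at these thresholds was 2.08% lower and 1.50% higher, 3.59% in all. The 3 knockout libraries lay entirely below the WT libraries for 12 members and entirely above for 11, against 28.2% and 26.6% of all genes. That is 46.9% of the tested members and 54.8% of all genes. The median log2 fold change was -0.09 over the members and -0.00 over all genes.

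**Figure D1:**
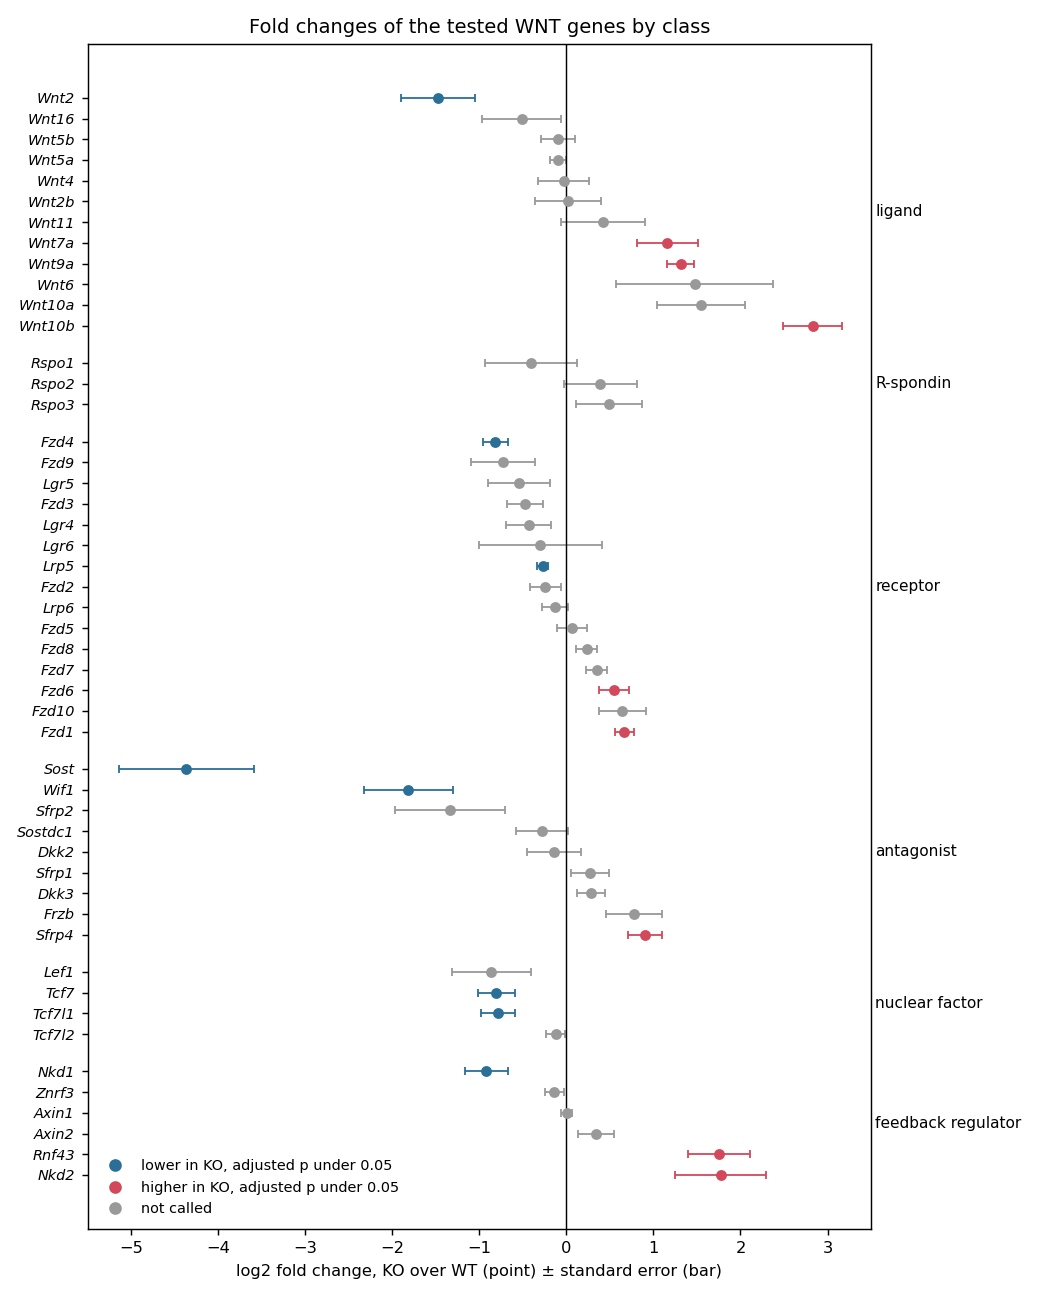
Log2 fold change of knockout over WT (x axis; point, with a bar for the standard error) of the 49 tested WNT genes, grouped by class; blue marks the 8 lower and red the 8 higher genes at an adjusted p under 0.05, and grey those not called. Sost at -4.37 and Wnt10b at 2.83 are the ends of the range.

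Among the ligands, Wnt9a, Wnt10b and Wnt7a rose and Wnt2 fell. Wnt9a, which acts in joint and cartilage formation, lay at 16.8, 13.6 and 16.0 CPM in WT and 41.9, 42.7 and 30.9 CPM in knockout. The groups did not overlap, and the rise was 1.31 ± 0.15 (SE) on the log2 scale (adjusted p = 0.0036, edgeR). Wnt10b, a canonical ligand that favours bone over fat formation, lay at 1.95, 0.807 and 1.42 CPM in WT and 8.59, 8.74 and 12.5 CPM in knockout. The knockout mean was 7.13 times that of WT (log2 fold change 2.83 ± 0.34 SE, adjusted p = 0.00374, edgeR), and KO3 was the highest library. Wnt7a, known from limb dorsal-ventral patterning, was scarce, at 0.951, 0.759 and 1.33 CPM in WT and 2.53, 2.75 and 1.52 CPM in knockout. Its KO3 value was only just above the highest WT library (log2 fold change 1.16 ± 0.35 SE, adjusted p = 0.0448, edgeR).

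Wnt2, a canonical ligand of mesenchyme, lay at 12.7, 19.7 and 19.1 CPM in WT and 8.64, 7.41 and 2.52 CPM in knockout. All knockout libraries were below all WT libraries (log2 fold change -1.47 ± 0.42 SE, adjusted p = 0.0383, edgeR). Wnt9a and Wnt10b kept an adjusted p under 0.05 with any library left out. Wnt2 did not: its adjusted p was 0.0698, 0.122 and 0.122 without WT1, WT2 or WT3 and 0.0661 without KO2. That of Wnt7a was 0.132, 0.145 and 0.0783 without WT1, WT2 or WT3, 0.102 without KO1 and 0.115 without KO2. With all libraries it was 0.0516 with library sizes alone, 0.0577 without a filter, and 0.0524 and 0.0503 by limma on log2(FPKM + 1) and log2(FPKM + 0.1).

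The most abundant ligand transcripts were not called. Levels were compared between genes as CPM per kb of the deposited gene length. On this scale Wnt16 was highest in WT at 27.8 ± 3.01 (SD, n = 3), followed by Wnt5a at 14.7 ± 1.48. Wnt2 at 7.23 ± 1.63 and Wnt9a at 4.64 ± 0.495 came next. In knockout the order was Wnt16 at 19.5 ± 11.1, Wnt5a at 13.8 ± 0.674, Wnt9a at 11.5 ± 1.98, Wnt10b at 2.73 ± 0.605 and Wnt2 at 2.60 ± 1.36. The neighbours Wnt16 and Wnt5a, and Wnt10b and Wnt2, overlapped between libraries in knockout. The gap between Wnt16 and Wnt5a depended on the measure of level. By the deposited FPKM values, means in WT were 35.9 for Wnt16 and 32.2 for Wnt5a, and their libraries overlapped. In knockout the FPKM order was reversed, with 25.3 for Wnt16 and 29.1 for Wnt5a. Wnt16, a ligand known for its role in cortical bone, lay at 86.6, 108 and 97.9 CPM in WT and 86.9, 94.1 and 23.6 CPM in knockout. KO1 and KO2 were thus within the WT range and KO3 far below it (log2 fold change -0.51, adjusted p = 0.411, edgeR). Wnt5a, the main noncanonical ligand, lay at 115, 94.5 and 100 CPM in WT and 94.7, 102 and 93.4 CPM in knockout (log2 fold change -0.09 ± 0.09 SE, adjusted p = 0.47, edgeR).

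The summed level of all 17 ligands was 59.4 ± 2.05 CPM per kb in WT and 56.1 ± 14.5 in knockout (SD, n = 3), and its make-up differed. In the knockout libraries the sum was 62.0, 66.6 and 39.6, so shares in KO3 are of a smaller sum. The shares hold for this scale of level only. Wnt9a made up 8.78%, 6.65% and 8.07% of the summed level in WT and 20.3%, 19.2% and 23.4% in knockout. Its share was highest in KO3, where its level was the lowest of the knockout libraries (12.6, 12.8 and 9.27 CPM per kb). The share of Wnt2 was 9.35%, 13.5% and 13.5% in WT and 5.86%, 4.68% and 2.68% in knockout. Wnt10b held 0.361% to 0.934% in WT and 3.80%, 3.60% and 8.66% in knockout, and none of these 3 shares overlapped between genotypes. That of Wnt16 was 43.1% to 50% in WT and 40%, 40.3% and 17% in knockout.

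**Figure D2:**
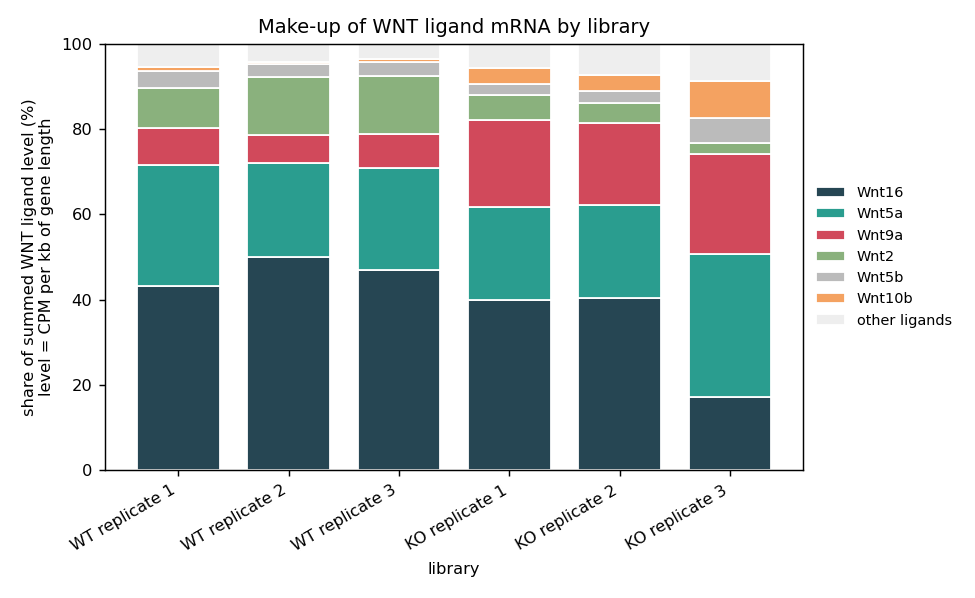
Stacked bars give the share (%) of each ligand in the summed level of all WNT ligands (CPM per kb) in each of the 6 libraries. The band of Wnt9a widens from 6.65% to 8.78% in WT to 19.2% to 23.4% in knockout, and that of Wnt16 shrinks to 17% in KO3.

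Among the remaining tested ligands, Wnt10a, which lies next to Wnt6 on chromosome 1, came nearest to the threshold, with 0.428, 0.902 and 0.617 CPM in WT and 0.859, 2.18 and 2.67 CPM in knockout. Its log2 fold change was 1.54 ± 0.51 (SE; adjusted p = 0.0556, edgeR), and without KO1 the adjusted p was 0.0229. Wnt4, Wnt5b, Wnt2b, Wnt11 and Wnt6 had log2 fold changes between -0.10 and 1.47 and were not called. Wnt3, Wnt7b, Wnt8a, Wnt8b and Wnt9b were not tested: their highest count in any library was 7, and 3 counts, taken as the floor, equal 0.142 to 0.143 CPM.

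None of the 3 tested R-spondins was called. Rspo3, an activator acting through LGR4 and LGR5, lay at 14.4, 12.2 and 14.4 CPM in WT and 14.3, 11.3 and 32.1 CPM in knockout, and Rspo2 at 13.6, 5.93 and 8.21 CPM in WT and 7.78, 9.64 and 19.0 CPM in knockout. In both, KO3 alone lay above the WT range. With all libraries their log2 fold changes were 0.49 (adjusted p = 0.341) and 0.39 (adjusted p = 0.495, edgeR), and without KO3 they turned to -0.09 and -0.08. Rspo1 was under 1 CPM in all libraries, and Rspo4 had 2 counts in all.

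All 15 receptor genes passed the filter, and 2 rose and 2 fell (26.7% called, against 33.0% of all tested genes). Fzd1 rose from 118, 91.7 and 102 CPM in WT to 154, 174 and 167 CPM in knockout (log2 fold change 0.67 ± 0.11 SE, adjusted p = 0.0077, edgeR), with KO3 between KO1 and KO2. In level per kb it stood at 24.8 ± 3.20 (SD) in WT, behind Fzd2 at 36.1 ± 2.98, and at 39.3 ± 2.51 in knockout, where Fzd2 was at 30.6 ± 7.41. Fzd2 itself lay at 144, 130 and 123 CPM in WT and 112, 139 and 84.8 CPM in knockout and was not called (log2 fold change -0.24, adjusted p = 0.319, edgeR). The levels of Fzd1 and Fzd2 did not overlap in WT and overlapped in knockout.

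Fzd4, the receptor that also binds norrin in vessels, fell from 21.0, 20.4 and 19.2 CPM to 13.6, 11.2 and 9.57 CPM (log2 fold change -0.81 ± 0.14 SE, adjusted p = 0.00918, edgeR). Fzd6, linked to hair and tissue polarity, was nearly constant in WT at 10.6, 10.4 and 10.5 CPM and lay at 15.4, 18.7 and 12 CPM in knockout (log2 fold change 0.55 ± 0.17 SE, adjusted p = 0.0473, edgeR). Lrp5, a co-receptor, fell slightly and evenly, from 125, 127 and 130 CPM to 106, 109 and 102 CPM (log2 fold change -0.27 ± 0.06 SE, adjusted p = 0.0214, edgeR). The related Lrp6 was not called (log2 fold change -0.13, adjusted p = 0.513, edgeR). Fzd1 and Fzd4 kept an adjusted p under 0.05 with any library left out. That of Lrp5 was 0.0714, 0.0762 and 0.0865 without WT1, WT2 or WT3 and 0.0564 without KO1, and by edgeR's exact test with all libraries it was 0.0546. That of Fzd6 was 0.127, 0.136 and 0.138 without WT1, WT2 or WT3, 0.0907 without KO1 and 0.111 without KO2, and it also missed the threshold with library sizes alone (0.0632), without a filter (0.0573) and by limma on log2(FPKM + 1) and log2(FPKM + 0.1) (0.0998 and 0.103). Exons of Fzd6 overlap a gene on the opposite strand, and whether the counting used the strand is not stated.

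The receptors for R-spondins were lowest in KO3. Lgr5, also a stem cell marker, lay at 71.5 to 86.6 CPM in WT and 74.0, 62.4 and 24.9 CPM in knockout. Lgr6 lay at 10.2 to 13.1 CPM in WT and 17.5, 8.83 and 1.38 CPM in knockout, and Lgr4 at 139 to 166 CPM in WT and 137, 127 and 66.7 CPM in knockout. None of the 3 was called (adjusted p = 0.231 to 0.767, edgeR). Fzd10 lay at 1.33, 1.14 and 0.996 CPM in WT and 2.15, 1.66 and 1.62 CPM in knockout without overlap, but was not called (log2 fold change 0.64, adjusted p = 0.107, edgeR). Fzd7, whose libraries did not overlap either, had a log2 fold change of 0.35 (adjusted p = 0.0655, edgeR), and without KO3 its adjusted p was 0.012. Fzd3, Fzd5, Fzd8 and Fzd9 had log2 fold changes between -0.73 and 0.23 and were not called. For Fzd3, Fzd9 and Lgr4 the knockout and WT libraries did not overlap, with knockout lower.

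Sost, which encodes sclerostin, an inhibitor of LRP5 and LRP6 made mainly by osteocytes, fell most among the members. It had 112, 204 and 167 counts in WT and 17, 6 and 0 counts in knockout, or 5.32, 9.68 and 7.92 CPM against 0.811, 0.285 and 0 CPM. The highest knockout library was thus far below the lowest WT library (log2 fold change -4.37 ± 0.77 SE, adjusted p = 0.00946, edgeR), and the count of 0 in KO3 allows up to 0.143 CPM. With any library left out the fall ranged from -5.68 to -3.79, with an adjusted p of at most 0.0499. Of the osteoblast and osteocyte list, Phex lay at 3.99, 3.23 and 3.42 CPM in WT and 2.53, 2.56 and 0.810 CPM in knockout, and Dmp1 at 0.666, 0.570 and 0.664 CPM in WT and 0.430, 0.332 and 0.191 CPM in knockout. Both were below WT in every knockout library and were not called (adjusted p = 0.166 and 0.103, edgeR). The same held for Alpl and Sp7 of this list (adjusted p = 0.107 and 0.220, edgeR). Bglap of the same list, which encodes osteocalcin, rose from 0.285, 0.190 and 0.285 CPM to 1.58, 1.57 and 1.10 CPM (log2 fold change 2.45 ± 0.36 SE, adjusted p = 0.00589, edgeR). The part of such cells in the fall of Sost was not tested.

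Wif1, which binds WNT ligands outside the cell, fell from 1.05, 1.23 and 1.28 CPM to 0.477, 0.427 and 0.0953 CPM (log2 fold change -1.81 ± 0.51 SE, adjusted p = 0.0354, edgeR). Sfrp4, a secreted Frizzled-like protein, moved the other way, from 16.1, 12.5 and 13.6 CPM to 27.1, 32.3 and 19.6 CPM (log2 fold change 0.90 ± 0.20 SE, adjusted p = 0.0172, edgeR). The libraries of the 2 genotypes did not overlap for either gene. The adjusted p of Wif1 was 0.0884, 0.108 and 0.115 without WT1, WT2 or WT3 and 0.0643 without KO2, and 0.0506 without a filter. That of Sfrp4 was 0.0743 without WT2 and 0.0751 without WT3.

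Sfrp2, another secreted Frizzled-like protein, had a level of 39.3 ± 4.71 CPM per kb in WT (SD, n = 3). This overlapped that of Sfrp1 at 37.2 ± 0.829, and both stood above the other antagonists but Sostdc1. By FPKM, Sfrp2 lay above Sfrp1 in WT, at 60.4, 48.2 and 56.7 against 39.3, 40.5 and 39.4. In CPM, Sfrp2 lay at 97.8, 76.8 and 88.8 in WT and 72.1, 21.7 and 10.4 in knockout. KO1 was just below the lowest WT library, whereas KO2 and KO3 were far below it. The gene was not called (log2 fold change -1.34 ± 0.63 SE, adjusted p = 0.144, edgeR); without KO1 the log2 fold change was -2.45 and the adjusted p was 0.0111. Its exons also overlap a gene on the opposite strand. Frzb, a related antagonist, lay at 2.23, 1.80 and 1.28 CPM in WT and 2.91, 2.28 and 3.95 CPM in knockout (log2 fold change 0.78, adjusted p = 0.104, edgeR).

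Sfrp1 and Sostdc1, the antagonists highest over all 6 libraries in level per kb, lay farthest from WT in KO3. Sfrp1 lay at 161, 167 and 160 CPM in WT and 150, 166 and 274 CPM in knockout (adjusted p = 0.361, edgeR), and its log2 fold change of 0.27 was -0.04 without KO3. Sostdc1 lay at 46.2, 67.1 and 63.4 CPM in WT and 59.4, 57.9 and 28.0 CPM in knockout (log2 fold change -0.28, adjusted p = 0.485, edgeR). Dkk2, a ligand of LRP6, and Dkk3, a distant relative, were not called (log2 fold changes -0.14 and 0.28). Dkk1 and Sfrp5 were not tested, with 8 counts in WT and 6 in knockout, and with 1 count in knockout.

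**Figure D3:**
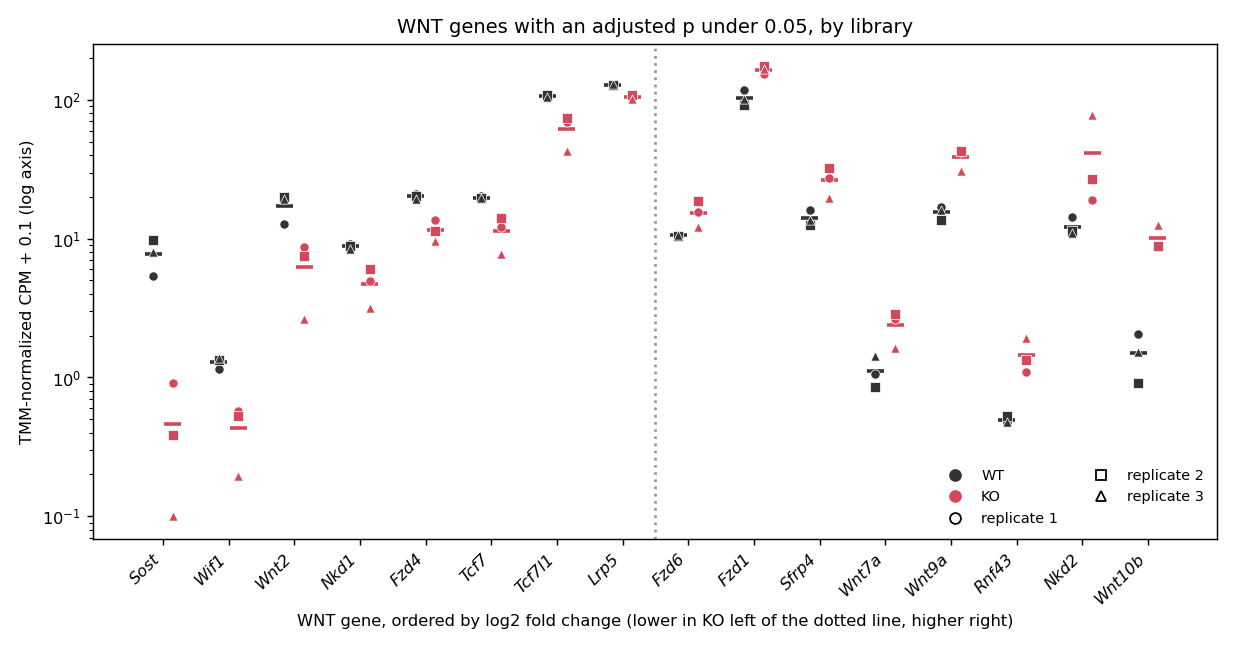
CPM + 0.1 on a log axis of the 16 WNT genes with an adjusted p under 0.05 in each library; black is WT, red is knockout, the marker shape gives the replicate and the short line the mean. Sost has no counts in KO3. WT and knockout do not overlap for any of the 16 genes, which were selected on these same 6 libraries, and 54.8% of all tested genes do not overlap.

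All 4 nuclear factors had negative fold changes, as did 6696 of the 13386 tested genes. Of the 4, 2 were called lower, against 16.6% of all tested genes, and a class of 4 is too small for its share to be read. Tcf7l1 was the most abundant, at 107, 109 and 105 CPM in WT and 69.0, 74.0 and 42.9 CPM in knockout (log2 fold change -0.78 ± 0.19 SE, adjusted p = 0.0247, edgeR). Tcf7, which encodes TCF1 and is itself a target of the pathway, lay at 20.1, 19.5 and 19.5 CPM in WT and 12.1, 14.0 and 7.62 CPM in knockout (log2 fold change -0.81 ± 0.21 SE, adjusted p = 0.0297, edgeR). In both, the WT libraries were nearly equal, KO1 and KO2 were lower and KO3 was lowest. Lef1 lay at 4.9, 5.36 and 5.6 CPM in WT and 5.06, 2.37 and 1.29 CPM in knockout, so that KO1 was within the WT range (log2 fold change -0.86, adjusted p = 0.184, edgeR; adjusted p = 0.0231 without KO1). Tcf7l2 lay at 42.6, 38.0 and 32.6 CPM in WT and 36.4, 33.6 and 34.0 CPM in knockout (log2 fold change -0.12, adjusted p = 0.418, edgeR).

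Summed over the 4 factors, the level was 52.1, 51.6 and 49.3 CPM per kb in WT and 35.9, 36.8 and 24.4 CPM per kb in knockout. Tcf7l1 made up 66.4% to 69.0% of it in WT and 57.0% to 65.2% in knockout. Without KO3 the adjusted p of Tcf7l1 was 3.97e-05 and that of Tcf7 was 0.000881. Without WT1, WT2 or WT3 it was 0.0763, 0.083 and 0.0806 for Tcf7l1 and 0.0912, 0.0906 and 0.0942 for Tcf7, and without KO1 it was 0.0518 for Tcf7. Exons of Tcf7l1 overlap a gene on the opposite strand.

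The feedback regulators split. Nkd1, an inhibitor of Dishevelled that the pathway itself induces, fell from 9.03, 8.83 and 8.35 CPM to 4.87, 5.94 and 3.05 CPM (log2 fold change -0.92 ± 0.25 SE, adjusted p = 0.031, edgeR). Its relative Nkd2 rose, from 14.2, 11.3 and 10.8 CPM to 18.9, 26.6 and 78.3 CPM (log2 fold change 1.77 ± 0.52 SE, adjusted p = 0.0408, edgeR). KO3 held 3.44 times the mean of KO1 and KO2, and without KO3 the log2 fold change was 0.92 and the adjusted p was 0.000952. Rnf43, the ligase that removes Frizzled proteins from the surface, rose from 0.380, 0.427 and 0.380 CPM to 1, 1.23 and 1.81 CPM (log2 fold change 1.75 ± 0.35 SE, adjusted p = 0.0137, edgeR), which rests on 8 to 9 counts in each WT and 21 to 38 counts in each knockout library. Znrf3, its partner, was not called (log2 fold change -0.14, adjusted p = 0.351, edgeR). With WT1, WT2 or WT3 left out the adjusted p was 0.096, 0.0968 and 0.0926 for Nkd1, 0.101, 0.13 and 0.136 for Nkd2, and 0.0567, 0.0563 and 0.0649 for Rnf43, and without KO1 it was 0.0603 for Nkd1. By limma on log2(FPKM + 1) and log2(FPKM + 0.1), the adjusted p of Nkd2 was 0.0698 and 0.0602.

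Axin1, the scaffold of the destruction complex, was the steadiest member, at 64.4, 66.9 and 65.6 CPM in WT and 66.2, 65.0 and 66.3 CPM in knockout (log2 fold change 0.00 ± 0.06 SE, adjusted p = 0.964, edgeR). Axin2, the best-known feedback target, lay at 12.9, 8.12 and 9.44 CPM in WT and 15.5, 11.7 and 11.3 CPM in knockout. The groups overlapped, and the gene was not called (log2 fold change 0.34 ± 0.21 SE, adjusted p = 0.249, edgeR).

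**Figure D4:**
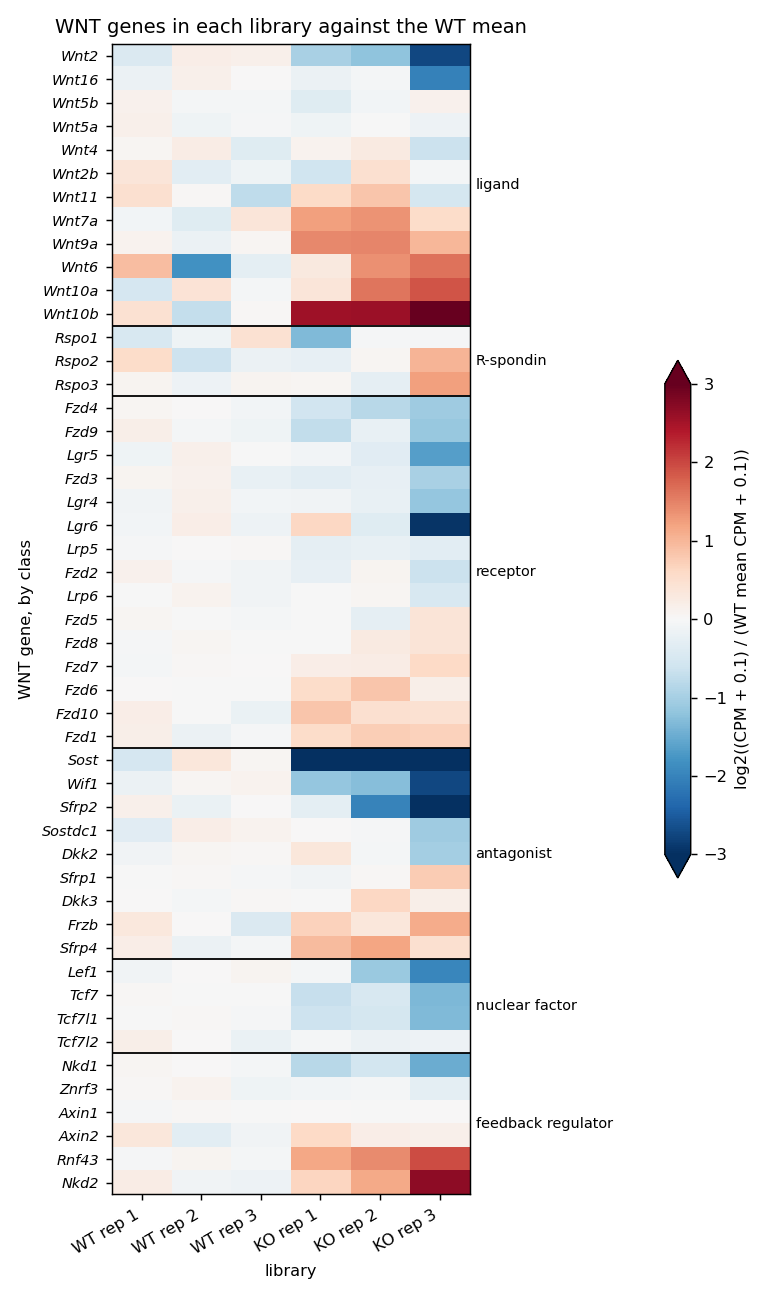
Each of the 49 tested WNT genes (rows, by class) in each of the 6 libraries (columns), as log2 of CPM + 0.1 over the WT mean + 0.1; red is above and blue below the WT mean, and the colour scale ends at 3 in both directions. KO3 is the column with the most deep colours, among them Wnt16, Lgr5, Lgr6 and Nkd2.

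Of 61 tested pathway genes from 5 lists outside the set, 8 were lower and 10 higher, with a median log2 fold change of 0.11. This is 29.5% called, against 33.0% of all tested genes. The lists hold the destruction complex and relay proteins, secretion and inactivation of ligands, nuclear cofactors, noncanonical receptors and co-receptors, and textbook target genes.

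Wls, which carries WNT ligands to the cell surface, rose from 322, 319 and 321 CPM to 470, 546 and 500 CPM (log2 fold change 0.66 ± 0.08 SE, adjusted p = 0.00362, edgeR). It was the only called gene of 5 on the secretion list (20%, against 33.0% of all tested genes). In the relay, 3 of 18 genes were lower and 5 higher (44.4% called, against 33.0% of all tested genes). Dvl1 rose (0.51 on the log2 scale, adjusted p = 0.00921, edgeR) from 67.0, 63.6 and 72.9 CPM to 92.2, 92.1 and 105 CPM, whereas the related Dvl2 fell (-0.52, adjusted p = 0.0279, edgeR) from 50.5, 51.5 and 54.6 CPM to 39.8, 40.5 and 29.2 CPM. Both encode Dishevelled proteins, which pass the signal from the receptor. Apc2 and Fbxw11 also rose (log2 fold changes 0.84 and 0.33), and Amer1 and Csnk1e fell (log2 fold changes -0.88 and -0.29). Ctnnb1, which encodes beta-catenin and is named for its place in the pathway, was not called (log2 fold change 0.16, adjusted p = 0.304, edgeR).

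Of 15 nuclear cofactors, 4 fell and 1 rose (33.3% called, against 33.0% of all tested genes). The corepressors Tle2 and Tle3, which bind TCF/LEF factors, fell by 0.68 (adjusted p = 0.0405, edgeR) and 0.56 (adjusted p = 0.014, edgeR) on the log2 scale. Hipk2, a kinase, fell by 0.39 and Nlk, a kinase that acts on TCF/LEF factors, rose by 0.44. Of 16 noncanonical genes, Vangl2, a planar polarity protein, fell from 37.7, 34.4 and 35.3 CPM to 19.9, 23.5 and 18.9 CPM (log2 fold change -0.79 ± 0.11 SE, adjusted p = 0.00501, edgeR). Gpc4, a cell-surface proteoglycan, rose from 310, 293 and 289 CPM to 651, 658 and 689 CPM (log2 fold change 1.16 ± 0.07 SE, adjusted p = 0.00144, edgeR). The remaining 14 noncanonical genes were not called, so that 12.5% of this list was called, against 33.0% of all tested genes.

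Of 22 textbook target genes in the table, 15 were tested, of which 2 were lower and 3 higher. This is 33.3% called, close to the 33.0% of all tested genes. The tested targets include Myc, which was not called (log2 fold change -0.20, adjusted p = 0.215, edgeR). C-MYC was also delivered by retrovirus, and whether vector transcripts entered the Myc counts is not stated. The members Tcf7 and Nkd1 were the 2 that fell. The 3 that rose were the member Rnf43, Ccnd1, which encodes cyclin D1, and Cd44, which encodes a hyaluronan receptor. Ccnd1 rose from 433, 375 and 379 CPM to 1093, 923 and 1020 CPM (log2 fold change 1.36 ± 0.10 SE, adjusted p = 0.00178, edgeR). Cd44 rose from 130, 140 and 127 CPM to 243, 212 and 446 CPM (log2 fold change 1.18 ± 0.27 SE, adjusted p = 0.0196, edgeR), with KO3 highest. The called targets moved in both directions, at a share near the background, and Axin2, Lef1, Lgr5 and Znrf3 were not called.

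Leaving out libraries changed the number of called members. Of the 16 called members, 5 (Wnt9a, Wnt10b, Fzd1, Fzd4 and Sost) were called with any library left out, and the other 11 were lost in at least 1 of 6 such fits. All 16 were called without KO3, the library that stood apart, when 8 members were lower and 9 higher, while 24.2% of all genes were lower and 23.9% higher. Without WT1, WT2 or WT3 the counts were 2 lower and 3 to 4 higher, while 5.17% to 7.31% of all genes were lower and 5.11% to 7.01% higher. Without KO1 the members counted 7 and 7, with 13.4% and 14.2% of all genes, and without KO2 6 and 6, with 11.6% and 12.4% of all genes. No member passed the stricter thresholds with WT1, WT2, WT3, KO1 or KO2 left out, when 0.00736% to 0.812% of all genes did, and 5 members did without KO3, when 5.85% of all genes did.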

How the data were processed

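Libraries of poly(A) RNA from 3 WT and 3 Rnf20 knockout cultures were compared. The authors aligned paired-end reads of stranded libraries to GRCm38/mm10 with HISAT2 2.1.0 and deposited raw counts per gene with gene lengths; the counting program is not given in the sources used here. The authors also deposited FPKM values from Cufflinks 2.1.1 for 12633 genes (44 members). Their own fold changes and FDR values were not used. Counts were analysed in R 4.3.3 with edgeR 4.0.16 (TMM, filterByExpr defaults, quasi-likelihood test, Benjamini-Hochberg adjustment over 13386 genes, no covariates), checked on simulated data. Standard errors were computed as |log2 fold change| / sqrt(F). Named in full were called members, members at 1 CPM or more with non-overlapping libraries and over 0.5 on the log2 scale, and the 2 highest per class; pathway lists give up to 3 called genes per direction. Other genes named (among them Wnt10a, the Lgr genes, Lef1, Axin2, Fzd7, Ctnnb1 and the marker genes), the CG counts and the comparison of each library with its own genotype were chosen after their values were seen. Members and lists were chosen with earlier results of these data known. Alternatives used DESeq2 1.42.0, edgeR's exact test, limma 3.58.1 on log2(FPKM + 1) and log2(FPKM + 0.1), other scalings and filters, and each library left out. Positions are from GENCODE and promoters from RefSeq GRCm38.p6. PCR duplicates cannot be told apart, so floors cover counting error only.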

Additional observations from a re-analysis of the deposited data

How the results depend on the processing

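Over 15 alternatives for 28 members, 350 of 417 values kept their direction and their side of the threshold, 59 lost the call, 1 gained it and 7 changed sign. All 59 losses fell on the 16 called members. For the other members of the 28, keeping their side means only that they were still not called. Some members outside the 28 were called in an alternative. Wnt10a passed by DESeq2 (adjusted p = 0.0279), by the exact test (0.0204) and without KO1 (0.0229, edgeR). Fzd7 passed by DESeq2 (0.0348) and without KO3 (0.012, edgeR). Fzd3 passed with the replicate block (0.0466, edgeR) and Lef1 without KO1 (0.0231, edgeR). The sign changes were those of Axin1 (-0.06 with library sizes alone, -0.01 without a filter, and from -0.01 to 0.02 with a library left out), Rspo2 (-0.08 to 0.77), Rspo3 (-0.09 to 0.77) and Sfrp1 (-0.04 to 0.44), none of which was called. With single libraries left out, members lower ranged from 2 to 8, members higher from 3 to 9 and members past the stricter thresholds from 0 to 5; the lowest counts came without WT1, WT2 or WT3 and the highest without KO3. DESeq2 and the exact test each passed 5 members at the stricter thresholds, against 3, while the share of all genes rose from 3.59% to 7.34% and 7.28%. With limma on log2(FPKM + 1) or log2(FPKM + 0.1), 4 members were higher in each case; Rnf43 has no FPKM value. Replicate numbers gave no sign of pairing the samples. The deviations of same-numbered libraries correlated at -0.0656, 0.0366 and 0.0109, and not every library correlated best with its own number. With 3 libraries per genotype and KO3 apart from KO1 and KO2, this check could not decide whether the samples were paired. With the replicate block 6 members were lower, 5 higher and 0 past the stricter thresholds, where all genes also gave 0% by edgeR; the cause was not tested. In the unblocked fit with library sizes alone, the median of all genes was -0.06.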
